A study of Mus musculus with 5 samples.

Results

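Natural killer (NK) cells of the mouse kidney were followed through obstruction and its reversal in 4 droplet libraries. A cell was taken as an NK cell when it carried at least 2 unique molecular identifiers (UMIs, each standing for 1 captured transcript) of Ncr1, Klrb1c, Gzma and Klre1 together, at most 1 UMI of Cd3d, Cd3e and Cd3g together, and no UMI of Csf1r. The rule was applied to 13823 kept cells, those in which 200 genes or more were detected and mitochondrial UMIs did not exceed 50%, and 108 met it. They came 3 from sham, 27 from day 2, 68 from day 7 and 10 from the reversed library. Because these genes chose the cells, their levels are description and were not read as a result.

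NK cells are innate lymphocytes that kill stressed or infected cells without a rearranged antigen receptor. They weigh signals from activating receptors (NKp46, encoded by Ncr1, and NKG2D, encoded by Klrk1) against inhibitory lectin-like receptors of the Ly49 and NKG2 families, and kill by releasing perforin and granzymes. They also secrete interferon gamma and chemokines that call in dendritic cells and T cells, and they share many genes with tissue-resident type 1 innate lymphoid cells (ILC1).

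The 4 libraries held kidney cells of C57/BL6 mice aged 8 weeks: sham surgery (day 0), unilateral ureteric obstruction (UUO) for 2 days, UUO for 7 days, and a kidney 7 days after the obstruction was lifted, on experimental day 14. Kidneys of 3 mice went into each library, and a condition had no second library, so mice cannot be separated and no test between conditions was possible. Cells were digested on ice and sorted for viability with DAPI, with no gate on immune cells named, and a further sample held 768 Smart-seq2 wells with the time points mixed.

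The libraries held 18649637 to 30462683 UMIs, and the selected cells had medians of 2419 (sham), 2998 (day 2), 3388 (day 7) and 3358.5 UMIs (reversed). From 16 to 39 cell barcodes were shared by any pair of libraries, and 1 selected barcode was also deposited in another library. Kept cells without a UMI of Ptprc, the pan-leukocyte gene, served as a stand-in for free RNA. Their medians ran from 2696 UMIs in sham to 5433 on day 2, so their profile includes their own transcripts. Scaled on tubule marker genes alone, it was estimated to supply 15.4%, 6.09%, 18.2% and 9.99% of the UMIs of the selected cells, in the same order. In day 7 cells with at least 3 rule UMIs it was 7.49%. All intervals below are exact at 95% and cover counting error only.

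The label was checked first, and several cytotoxic lymphocyte genes outside the rule were found in most cells but less often in those with the fewest rule UMIs. Of the 97 cells with at least 3 UMIs of the rule genes, 96 carried Nkg7, a cytotoxic granule membrane gene outside the rule, 94 carried Ccl5, 92 carried Klrk1 and 85 carried Klrd1. T cells also carry Nkg7 and Ccl5, and the NK factors Eomes and Tbx21 were found in only 32 and 35 of the 97. Prf1, the marker of the cell type that the rule did not use, was found in 24 of the 97 and 0 of the 11, Il2rb in 72 and Xcl1 in 56 of the 97. The 11 cells with exactly 2 rule UMIs were different: none carried Nkg7, Il2rb, Eomes or Tbx21, while Ccl5 was found in 6, Klrd1 in 5 and Klrk1 in 4 of them. Their median was 483 UMIs of the MHC class II genes Cd74, H2-Aa, H2-Ab1 and H2-Eb1, which mark antigen-presenting cells, against a median of 13 in the other 97. Of these 11 cells, 8 had at least 100 class II UMIs and 2 had at least 100 UMIs of tubule genes, and 10 of the 11 lay in the day 7 library. The main results are therefore also given for the cells with at least 3 rule UMIs (3, 27, 58 and 9 cells). Just outside the rule lay 6, 62, 155 and 48 cells with 1 rule UMI. A further 46 day 7 cells were left out for Csf1r alone, 16 of them with at least 5 rule UMIs, against 3 left out for Csf1r on day 2. Another 4, 24, 40 and 28 cells (sham, day 2, day 7, reversed) had at least 2 rule UMIs but were left out for Cd3 and count as T cells below, so in the sham and reversed libraries they outnumber the NK cells.

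**Figure D1:**
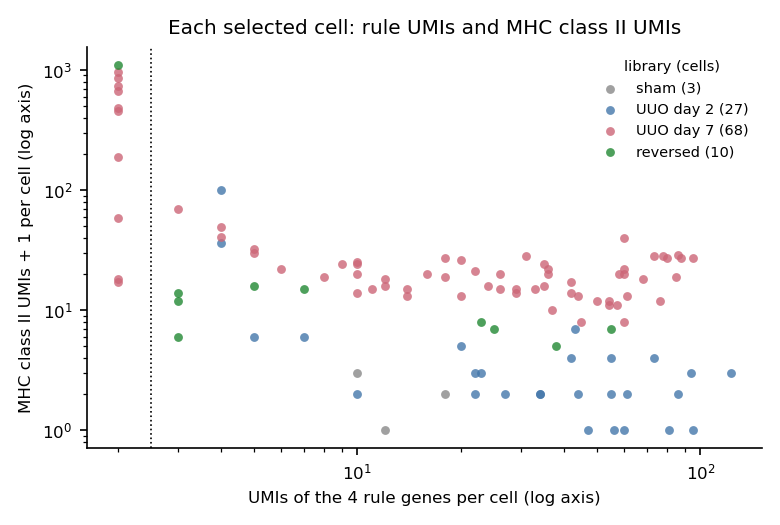
Each point is 1 selected cell. The x axis gives its UMIs of the 4 rule genes and the y axis its UMIs of 4 MHC class II genes plus 1, both on log axes, coloured by library, and the dotted line separates cells with 2 rule UMIs. The 8 cells above 100 class II UMIs all lie left of the line.

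T cell receptor transcripts gave a second check. Trac, the alpha chain constant gene, was found in 8 of the 108 cells (7.41%) and in 544 of 699 T cells (77.8%), T cells being kept cells with at least 2 Cd3 UMIs and no Csf1r. The beta chain constant genes Trbc1 and Trbc2, which NK cells are known to transcribe without rearrangement, were found in 72 of the 108 cells. In cells without Ptprc, a Trbc UMI was seen in 0.601% to 11.5% of cells depending on the library. A stricter rule with no Cd3 and no Trac, Trbc1 or Trbc2 UMI, called no receptor constant UMI below, leaves only 0, 9, 20 and 3 cells. Trdc was not part of it. Of these cells, 0, 9, 13 and 2 had at least 3 rule UMIs. The stricter rule thus keeps day 7 cells with exactly 2 rule UMIs, none of which carried Nkg7.

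The genes that set the selected cells apart from all other kept cells, outside the rule, were Xcl1, Ccl5, Nkg7, Klrk1, AW112010, Klra8, Klra4, Txk, Il2rb and Klrc1, followed by Klrc2, Cd7, Klrb1f, Klra7, Ctsw, Ms4a4b, Klrd1, Klri2, Ptprcap and Cst7. They cover chemokines (Xcl1, Ccl5), granule genes (Nkg7, Ctsw, Cst7), lectin-like receptors (the Klr genes), a proximal kinase (Txk) and the shared interleukin-2 and interleukin-15 receptor beta chain (Il2rb). Of these 20, between 18 and 20 were higher in the selected cells than in T cells of the same library. The genes were chosen against cells that include the T cells, so this count is description and was not read as a result. Klra8, a Ly49 receptor gene, stood at 404 counts per 1e6 UMIs (CPM) in sham, then 623 (day 2), 384 (day 7) and 165 (reversed). In T cells it stood at 0, 14.2, 3.14 and 0 CPM. Klra genes are near-identical copies of one another, so their reads may be split between them. Granule and chemokine genes were shared with T cells: Ccl5 stood at 12121, 16541, 8409 and 6400 CPM in the selected cells, and at 10340, 5532, 2481 and 2091 CPM in T cells.

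NK cells were scarce in the sham and reversed kidneys and more frequent during obstruction. In sham they made up 0.0763% of kept cells, with an interval of 0.0157% to 0.223%. The share was 1.22% on day 2 (0.808% to 1.78%), and on day 7 it was 1.53% (1.19% to 1.93%). The reversed library held 0.309% (0.148% to 0.568%). The denominator holds every cell type, and the median mitochondrial share of kept cells ran from 2.98% on day 7 to 33.7% in sham. With the mitochondrial limit set to 20%, sham stood at 0.463% and day 2 at 1.78%. Against lymphocytes alone, sham was close to the obstructed kidneys and the reversed library stood lower. In sham, 3 of the 21 NK plus T cells were NK cells (14.3%, 3.05% to 36.3%). The day 2 share was 20.1% (13.7% to 27.9%), and the day 7 share was 19.7% (15.6% to 24.2%). After reversal they were 3.27% (1.58% to 5.93%, 10 of 306 cells). The interval of the reversed library does not overlap those of day 2 and day 7, while that of sham overlaps all 3. T cells made up 0.458% (sham), 4.85% (day 2), 6.25% (day 7) and 9.15% (reversed) of kept cells, so they were most frequent where NK cells were again few. Counting only cells with at least 3 rule UMIs, the NK share of NK plus T cells was 17.3% on day 7 and 2.95% after reversal.

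**Figure D2:**
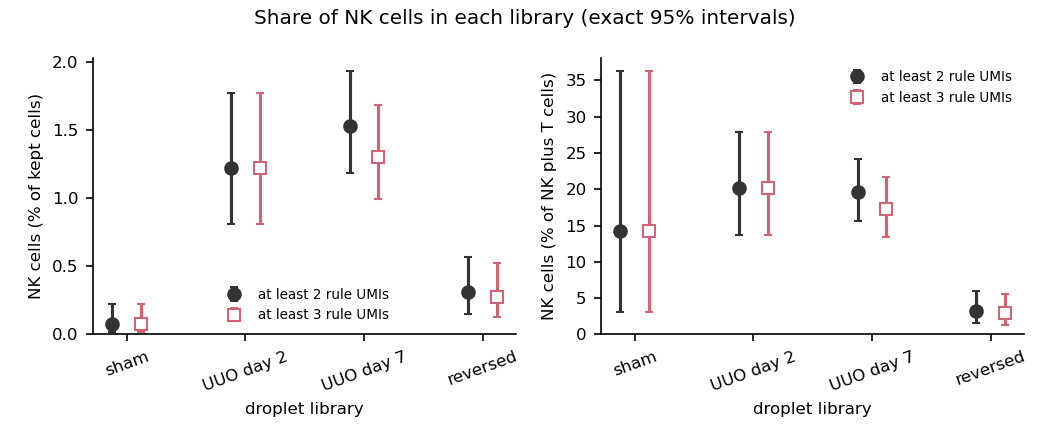
NK cells as a percentage of all kept cells (left) and of NK plus T cells (right) in each droplet library, for cells with at least 2 (circles) or at least 3 rule UMIs (squares), with exact 95% intervals. The reversed library sits at 3.27% on the right, below 20.1% on day 2 and 19.7% on day 7.

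Only day 2 and day 7 had at least 20 NK cells, so they give the only ratio between libraries. Ratios are log2 of CPM plus 10, which understates changes of low genes. A gene was counted as past the threshold when it had at least 30 UMIs over both libraries, differed by at least 2-fold and had an interval that left out equality. Of 1862 genes measured so, 8.7% were higher and 3.22% lower on day 7. Among cells with at least 3 rule UMIs, 5.62% of 1424 genes were higher and 2.67% lower. In T cells of the same libraries 5.8% of genes were higher and 0.659% lower. The median over all genes was -0.0014, or 0.0083 with at least 3 rule UMIs. The rule genes, whose levels the choice of cells fixes, had a median of -0.82, and -0.33 with at least 3 rule UMIs.

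Among the killing genes granzyme B was lower on day 7 than on day 2, and most others stayed within 2-fold. Gzmb, which encodes a protease that triggers death of the target cell, had no UMI in sham and stood at 1880 CPM (day 2), 388 CPM (day 7) and 282 CPM (reversed). It was found in 19 of 27 cells on day 2 (median 2 UMIs, highest 47) and in 30 of 68 on day 7 (median 0, highest 20), so the cells of both libraries overlapped. With every cell thinned to 1000 UMIs, 44.4% of day 2 and 23.5% of day 7 cells had a Gzmb UMI. The ratio of day 7 to day 2 was -2.25 (-2.59 to -1.91). It was -1.75 (-2.10 to -1.41) with at least 3 rule UMIs, -1.58 in cells with at least 3 Gzma UMIs as well, and -2.12 without the highest cell of each library. In T cells Gzmb stood at 287 CPM on day 2 and 183 on day 7, a ratio of -0.62 (-0.92 to -0.32). Prf1, encoding the pore-forming perforin, stood at 135, 204, 74.8 and 23.5 CPM. Its ratio of -1.34 (-2.19 to -0.46) became -0.88 (-1.75 to 0.01) with at least 3 rule UMIs. Nkg7 (3906, 4291, 2684 and 1553 CPM), with a ratio of -0.67, Ctsw (-0.64) and Srgn, the granule proteoglycan serglycin (-0.05), stayed within 2-fold.

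Of 10 granule genes with enough UMIs, 2 were past 2-fold lower (Gzmb and Prf1) and none higher. With at least 3 rule UMIs only Gzmb remained. The median over the 14 granule genes with at least 10 UMIs was -0.71, or -0.35 with at least 3 rule UMIs, against -0.0014 and 0.0083 over all genes. The mouse granzymes Gzmc and Gzmk had 9 UMIs and 1 UMI on day 7 and none on day 2.

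**Figure D3:**
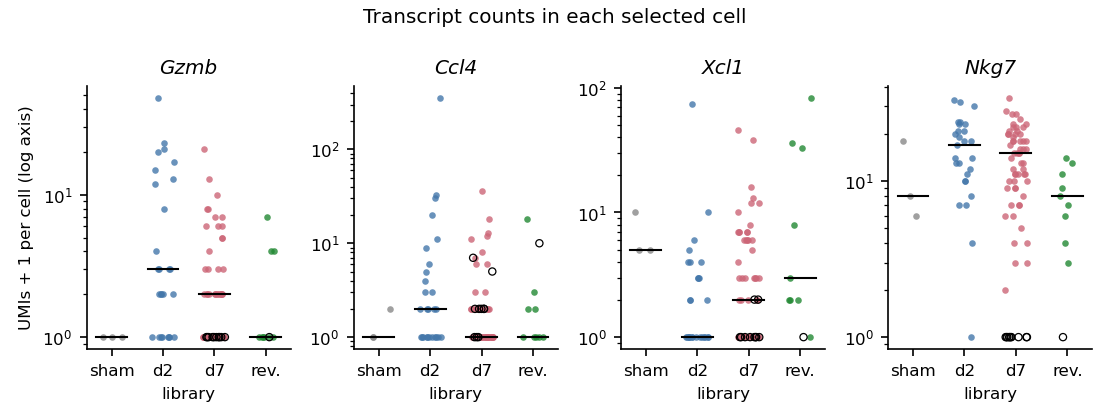
UMIs plus 1 of Gzmb, Ccl4, Xcl1 and Nkg7 in each selected cell (log axes) of the sham, day 2 (d2), day 7 (d7) and reversed (rev.) libraries. Filled points have at least 3 rule UMIs and open circles have 2, bars are medians of the filled points. The Gzmb medians are 2 on day 2 and 1 on day 7, and 1 day 2 cell stands far above the other day 2 cells for Ccl4 and Xcl1. For Xcl1 a reversed cell is higher, at 82 UMIs against 73.

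The promoters of Gzmb and Prf1, the granule genes past the threshold, are shown beside that of Ncr1, the gene used most to define NK cells. They are the 250 bases before the RefSeq transcription start, 5′ to 3′, with capitals on TGTGGT or its reverse complement, the core bound by RUNX factors.
Ncr1 (GRCm38.p6 chr7:4337465-4337714, plus strand): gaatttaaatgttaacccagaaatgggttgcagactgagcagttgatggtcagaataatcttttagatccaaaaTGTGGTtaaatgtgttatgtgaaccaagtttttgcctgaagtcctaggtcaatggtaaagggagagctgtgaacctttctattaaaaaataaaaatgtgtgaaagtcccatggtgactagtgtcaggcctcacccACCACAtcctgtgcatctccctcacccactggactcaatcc
Gzmb (GRCm38.p6 chr14:56262335-56262584, minus strand): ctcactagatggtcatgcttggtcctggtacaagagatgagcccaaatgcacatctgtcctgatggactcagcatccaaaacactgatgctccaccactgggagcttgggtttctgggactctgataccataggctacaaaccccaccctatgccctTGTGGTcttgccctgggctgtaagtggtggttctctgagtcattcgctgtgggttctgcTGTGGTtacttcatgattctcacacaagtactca
Prf1 (GRCm38.p6 chr10:61297586-61297835, plus strand): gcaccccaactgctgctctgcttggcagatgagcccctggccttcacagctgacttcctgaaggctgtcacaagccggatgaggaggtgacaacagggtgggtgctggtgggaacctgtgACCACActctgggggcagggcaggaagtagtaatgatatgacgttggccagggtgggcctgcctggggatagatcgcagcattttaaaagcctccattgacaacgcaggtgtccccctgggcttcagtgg
The gene Gzmb spans chr14:56258838-56262260 on the minus strand and Prf1 spans chr10:61297833-61304680 on the plus strand of GRCm38. The RefSeq start of Gzmb lies outside its span and the Prf1 promoter overlaps the first bases of its span, so spans and starts differ. Runx3, a RUNX factor of cytotoxic lymphocytes, stood at 135, 266, 173 and 376 CPM. The core was searched on both strands in 300 bases per promoter (250 before to 50 after the start), and 16.8% of 32851 RefSeq mouse promoters held it. All 4 rule genes held it, as did 7 of the 13 leading genes that the promoter table lists. Over 27025 genes, 18.9% held it in at least 1 promoter. The T-box core TCACAC, which can share bases with a RUNX core, was in 14.5% of promoters and in those of Ncr1 and Gzmb, but was not found in that of Prf1. It was in 2 of the 4 rule genes and 3 of the 13 leading genes, against 16.4% of all genes. Of the other letters searched on both strands, TCACACC, which contains the T-box core, was in 3.98% and the ETS core GGAAGT in 23.8% of promoters. TCACACC was in 0 of 4 rule and 2 of 13 leading genes, and GGAAGT in 1 and 5, against 4.60% and 26.5% of all genes. These are matches of letters and not binding sites.

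The chemokines Ccl3 and Ccl4 had lower summed levels on day 7, which for Ccl3 rested on 1 cell. Ccl4 and Ccl3, which attract macrophages and T cells, stood at 4812 and 2799 CPM on day 2 and at 490 and 299 CPM on day 7. Their ratios were -3.27 (-3.54 to -3.00) and -3.18 (-3.54 to -2.84), or -2.93 and -2.91 with at least 3 rule UMIs. A single day 2 cell held 352 of the 471 Ccl4 UMIs and 243 of the 274 Ccl3 UMIs. The same cell held 73 of the 109 Xcl1 UMIs and 13 of the 23 Ifng UMIs, with 47 rule UMIs, 0 MHC class II UMIs and 2812 UMIs in all. It was also the 1 selected day 2 cell among those left out for a high doublet score from Scrublet. Without the highest cell of each library, the ratios were -1.72 for Ccl4, -0.31 for Ccl3 and -0.98 for Ifng, and that of Xcl1 went from -0.50 to 0.74. With every cell thinned to 1000 UMIs, Ccl3 was found in 14.8% of day 2 and 19.1% of day 7 cells, and Ccl4 in 37.0% and 26.5%. In T cells Ccl3 and Ccl4 were higher on day 7, at 1.33 (0.68 to 1.97) and 0.66 (0.38 to 0.94).

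Ccl5, in contrast, was spread over 26 of 27 cells on day 2 (median 50 UMIs) and 61 of 68 on day 7 (median 33.5), with a ratio of -0.98 (-1.07 to -0.88) that was -0.50 with at least 3 rule UMIs. In T cells it was also lower on day 7. Of 7 secreted factors with enough UMIs, 3 were past 2-fold lower (Ccl3, Ccl4 and Ifng) and none higher. Without the highest cell of each library only Ccl4 of these differed by 2-fold, and without high Scrublet scores the list median went from -0.98 to -0.15. The lymphotoxin gene Ltb and Tgfb1 differed by -0.14 and 0.14, or by 0.31 and 0.32 with at least 3 rule UMIs. Il10 and Areg were at 0 in all 4 libraries. A count of 0 allows up to 10.2 CPM on day 7 and 404 CPM in sham. Ccl1, named after its values were seen, was held by single cells on day 2 and after reversal: all 70 UMIs of day 2 were in 1 cell and all 104 of the reversed library in another. That day 2 cell had 4 rule UMIs, all of Ncr1, with 6 Nkg7 and 0 Ccl5 UMIs. It also had 99 MHC class II UMIs, against a day 2 median of 1.

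**Figure D4:**
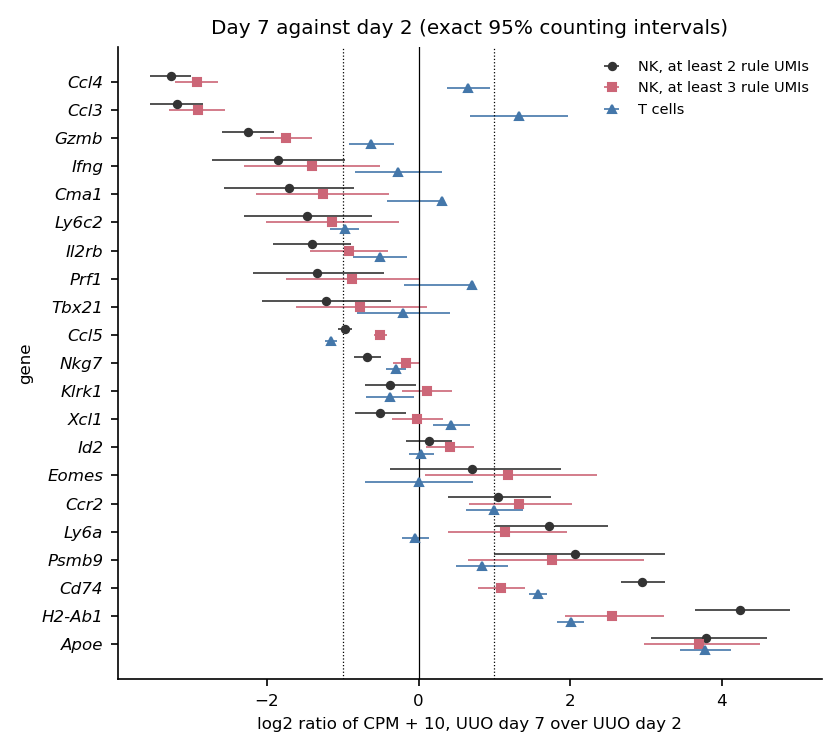
Log2 ratio of CPM plus 10, day 7 over day 2, for 21 genes in NK cells with at least 2 (circles) or 3 rule UMIs (squares) and in T cells (triangles), with exact 95% counting intervals. Dotted lines mark 2-fold. Gzmb lies at -2.25 and -1.75 in NK cells and at -0.62 in T cells, and Apoe lies at 3.79, 3.70 and 3.78.

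Few receptor and adaptor genes were past 2-fold, though their list medians depended on the rule. With no Cd3 and no receptor constant UMI allowed (9 and 20 cells), the medians were -1.52 for lectin-like receptors and -1.07 for activating receptors. Only 13 of those 20 day 7 cells had at least 3 rule UMIs, against all 9 on day 2. Of 14 lectin-like receptor genes with enough UMIs, 1 was past 2-fold lower (Klra4, at 593 and 276 CPM) and none higher, with a list median of -0.53. With at least 3 rule UMIs none was past it, Klra4 was at -0.59 and the list median was -0.07. Klrk1 stood at 1347, 1103, 850.5 and 1294 CPM, and its ratio was -0.37. The adaptors Tyrobp (-0.14) and Fcer1g (-0.42), which couple activating receptors to kinases, stayed within 2-fold, and of 8 signalling genes only Cd247, the zeta chain, was past it (-1.17). With at least 3 rule UMIs Cd247 was at -0.72, its interval included equality, and none of the 8 was past it. None of 8 activating and adhesion receptors was past it, and their list median was -0.055, or 0.15 with at least 3 rule UMIs. Il2rb, through which interleukin-15 keeps NK cells alive, was lower at -1.41 (-1.92 to -0.89). It was found in 26 of 27 cells on day 2 and 34 of 68 on day 7, and its ratio was -0.92 with at least 3 rule UMIs. Among chemokine receptors Ccr2 was higher on day 7, at 215 against 452 CPM (1.04, 0.39 to 1.74; 1.32 with at least 3 rule UMIs), as it was in T cells (0.99). Checkpoint receptors were sparse: Pdcd1, Tigit and Ctla4 had no UMI in NK cells of day 2 or day 7, and Lag3 had 1. Of the other 3 on the list, Lilrb4a was found in 14, Cd96 in 9 and Havcr2 in 4 of the 68 day 7 cells, against 3, 2 and 1 of 27 on day 2, and Pdcd1 was found in 2 of the 10 reversed cells.

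Neither T-box factor of NK cells passed the threshold in both sets of cells. Tbx21 stood at 204 CPM on day 2 and 81.6 on day 7 (-1.23, -2.06 to -0.36), and at -0.77 with at least 3 rule UMIs. Eomes, which separates NK cells from ILC1, stood at 71.5 and 122 CPM (0.70, -0.38 to 1.87), and at 1.17 (0.09 to 2.35) with at least 3 rule UMIs. Eomes was found in 7 of 27 and 23 of 68 cells. Of 11 transcription factor genes with enough UMIs, 2 were past 2-fold lower (Tbx21 and Irf8), and with at least 3 rule UMIs 1 was higher (Eomes) and none lower. Id2, needed for innate lymphoid development, was at 1616, 1175, 1289 and 1412 CPM. Of 7 genes of mature NK cells, 3 were past 2-fold lower in both sets of cells (Gzmb, Cma1 and Ly6c2). Of 7 genes of immature NK cells, none was past it.

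Interferon-induced genes had a list median above equality, day 7 over day 2, in NK cells and in T cells. Of 11 with enough UMIs 7 were past 2-fold higher (Isg15, Ifit1, Irf7, Bst2, Ifi203 and Ly6a among them) and none lower. With at least 3 rule UMIs it was 5 of 7, Gbp4 among them. The list median was 1.64, and 1.03 with at least 3 rule UMIs, against 1.02 in T cells. The medians of the genes' interval bounds were -0.066 and 2.64, or -0.50 and 2.30 with at least 3 rule UMIs, so both ranges in NK cells include equality. Psmb9, an immunoproteasome subunit, stood at 61.3 and 289 CPM (2.07, and 1.76 with at least 3 rule UMIs). Ifit1 had no UMI on day 2 and 35 on day 7, at least 3.88-fold higher against a floor of 3 counts per library, but 4 UMIs remained on day 7 with at least 3 rule UMIs. Cells without Ptprc carried these genes too. After thinning every cell to 1000 UMIs, 52.9% of the day 7 NK cells had at least 2 interferon UMIs, against 61.5% of cells without Ptprc, and 29.6% against 36.6% on day 2. The share in NK cells was not above that of these cells. With the free RNA profile subtracted, scaled on tubule genes alone, the list median was 1.54. An interferon-stimulated response element, searched on both strands, was in the promoters of 6 of the 15 interferon genes in the promoter table. It was in 0.685% of all promoters, and 0.792% of all genes held it in at least 1 promoter. A spaced GAAA palindrome was in 0 of the 15, in 0.521% of all promoters and in 0.599% of all genes.

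Genes of phagocytes led the increases. All 6 phagocyte markers with enough UMIs were past 2-fold higher on day 7, in both sets of cells. Their 10-gene sum went from 1614 CPM on day 2 to 12682 on day 7, or 6173 with at least 3 rule UMIs, and from 1866 to 8374 CPM in T cells. Apoe was higher by 3.79 in NK cells and 3.78 in T cells, and it was found in 99.8% of day 7 cells without Ptprc. With the free RNA profile subtracted, the ratio of Apoe in NK cells was 3.73 and that of Lyz2 was 1.84, against 2.08 as counted. The subtraction was scaled on tubule genes alone, so free phagocyte RNA in another proportion to them is not removed. The part of free RNA in these increases was not tested. H2-Ab1 went from 4.24 to 2.56 when the cells with 2 rule UMIs were left out, and Cd74 from 2.95 to 1.09.

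Cell cycle transcripts were counted over 14 genes, the list of 18 without Tubb5, H2afz, Hmgb2 and Stmn1, which non-dividing cells also carry: a UMI of the 18 was found in all 27 day 2 and all 68 day 7 cells. At full depth, at least 2 UMIs of the 14 were found in 3 of 27 cells on day 2 (11.1%), 19 of 68 on day 7 (27.9%) and 2 of 10 in the reversed library. After thinning, 8 of 68 NK cells (11.8%) had at least 2 UMIs of cell cycle genes, or 6 of 58 with at least 3 rule UMIs, against 2.17% of cells without Ptprc. In sham, day 2 and reversed none did after thinning (0 of 3, 0 of 27 and 0 of 10). The interval of 0 of 27 reaches 12.8% and covers counting error only. With 1 library per condition, the difference between conditions was not tested. Top2a, which untangles dividing chromosomes, had 1 UMI on day 2 and 46 on day 7. Of these, 21 lay in 1 cell with 3 rule UMIs and no Ncr1 and 15 in 1 cell with 2 rule UMIs and 850 MHC class II UMIs. In day 7 cells with at least 3 Gzma UMIs, 6 remained.

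By size among genes found more often in NK cells than in cells without Ptprc, the 10 largest decreases were Ccl4, Ccl3, Gzmb, Ddit4, Ifng, Cd37, Mrpl4, Cma1, Dusp5 and Tsc22d3. The ranks of Ccl4, Ccl3 and Ifng rested on the 1 day 2 cell described above. Ddit4 and Tsc22d3, both induced by glucocorticoids, were at -1.85 and -1.71 (-1.66 and -1.33 with at least 3 rule UMIs), and in T cells at -0.86 and -1.84. The increases were led by Mgl2, Apoe, H2-Eb1, Cd74 and Ctss, genes of antigen-presenting cells, followed by Mpeg1, Alox5ap, Ms4a4c, Lyz2 and Psmb9. With at least 3 rule UMIs the 10 increases became Apoe, Cbl, H2-Eb1, Ppp1r16b, Psmb9, Slfn2, Prelid1, Smc4, Arl4c and Sltm. Cbl, a ubiquitin ligase that restrains activating receptors, stood at 30.7 CPM on day 2 and 146 on day 7 (1.94, 0.56 to 3.32). In T cells its ratio was 0.26 (-0.23 to 0.77). The glycolysis genes Ldha (-1.09) and Eno1 (-1.12) were past 2-fold lower, 2 of 8, in both sets of cells.

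The NK cells were also divided by Gzma. This division was made after the values had been seen and has no test. Gzma is part of the rule, so cells with little of it entered through Ncr1, Klrb1c or Klre1, and the shares below are description only. Among the 97 cells with at least 3 rule UMIs, 73 had at least 3 Gzma UMIs and 24 had fewer. In sham 2 of the 3 cells had little Gzma. Such cells were 18.5% of day 2 cells (5 of 27, interval 6.30% to 38.1%), 20.7% of day 7 cells (12 of 58, 11.2% to 33.4%) and 55.6% of reversed cells (5 of 9, 21.2% to 86.3%), so the intervals of all 3 overlap. Only 3 of the 24 had 1 or 2 Gzma UMIs, and 6 of the 73 had 3 to 5.

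Of the 11 genes listed for mature NK cells, 10 were found in a larger share of the cells with Gzma. The exception was Ly6c2, in 9 of 73 and 7 of 24. Gzmb was found in 50 of 73 of them and 2 of 24 of the others. Klf2, which drives exit from tissue, was found in 52 and 4 cells, and Klra8 in 40 and 2. Cma1, Klrg1 and S1pr5, the last a receptor for leaving tissue, were found in 24, 22 and 18 of the 73 and in 0 of the 24. These 3 genes were in 10, 7 and 8 of the 22 such cells of day 2 and in 12, 12 and 8 of the 46 of day 7.

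All 14 genes listed for ILC1 or tissue-resident cells, and 9 of the 10 listed for immature NK cells, were found in a larger share of the cells with little Gzma. So were 62.0% of all 4551 genes with at least 10 UMIs, 17 of 22 interferon, 10 of 12 glycolysis and 9 of 12 MHC class I genes, and these cells were deeper, with a median of 3447 UMIs against 2998. Il7r is on both lists, and Ltb and Xcl1 are on the immature NK list. Of the other immature NK genes, Cd27 was found in 10 of 24 and 18 of 73, and Emb in 12 and 16. Cxcr6, a receptor for tissue retention, was found in 11 of the 24 (1 sham, 1 day 2, 6 day 7 and 3 reversed cells) and in 0 of the 73. Il7r was found in 10 and 1 cells, Rora in 10 and 0, and Ikzf2 in 8 and 1. Ltb was found in 24 of 24 and 21 of 73, and Xcl1 in 23 and 33, at 3218 against 858 CPM. Gata3 was found in 16 of 24 and 16 of 73, and Cd226 in 12 and 9. Both kinds carried Klrk1 (23 of 24 and 69 of 73) and Nkg7 (23 and 73). Tbx21 was found in 8 and 27, and Eomes in 3 and 29. Itga1, the collagen receptor often used to define ILC1, was sparse at 4 and 1 cells. Beta chain constant transcripts moved with this division: a Trbc UMI was found in 22 of the 24 (91.7%) and 49 of the 73 (67.1%), against 90.7% of T cells. Trac was found in 2 and 4 cells and a Cd3 UMI in 6 and 3. Trdc, the delta chain constant gene, was found in 0 of the 24 and 16 of the 73. Cells without any Cd3, Trac, Trbc1 or Trbc2 UMI were 1 of the 24 and 23 of the 73, and Trdc was not part of this count. The part of T cells in this division was not tested. Among all 97 cells no cell had both Eomes and Cxcr6 or both Eomes and Il7r, where 32 had Eomes, 11 Cxcr6 and 11 Il7r. Eomes and Itga1 were found together in 1 cell. Whether genes this sparse would be found together more often was not tested.

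**Figure D5:**
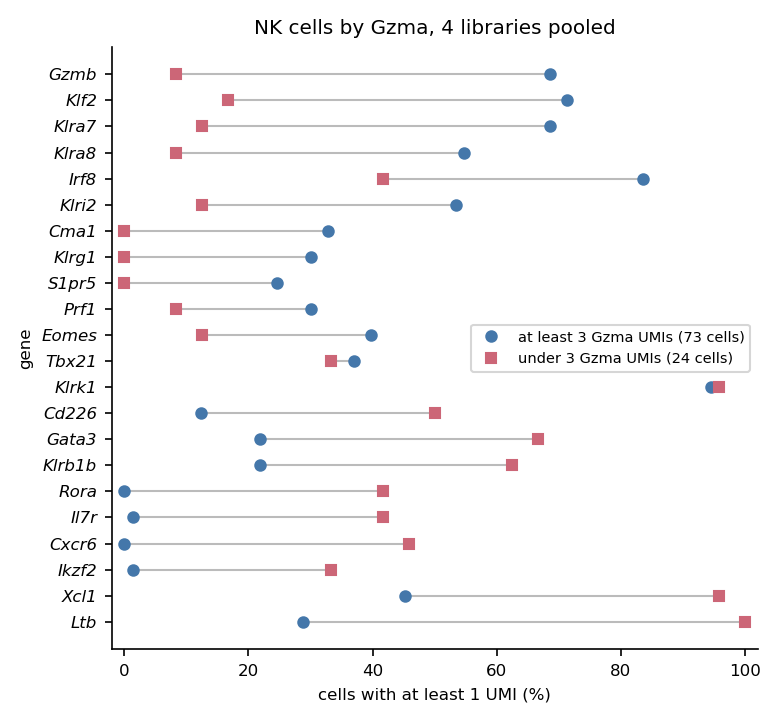
Percentage of NK cells with at least 1 UMI of each gene, for cells with at least 3 Gzma UMIs (73, circles) and with fewer (24, squares), over the 4 libraries and among cells with at least 3 rule UMIs. Gzmb lies at 68.5% and 8.33%, Cxcr6 at 0% and 45.8%, and Klrk1 near the top in both.

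The sham and reversed libraries give values only. The 3 sham cells carried Xcl1 (9, 4 and 4 UMIs), Nkg7 and Ltb in every cell and no Gzmb or Ifng UMI, and 1 of them carried Gzma. After reversal Xcl1, which attracts cross-presenting dendritic cells, stood at 3788 CPM (3226 to 4421), against 2290 (sham), 1114 (day 2) and 782 CPM (day 7). It was found in 8 of the 10 reversed cells, and 1 cell held 82 of the 161 UMIs. In T cells Xcl1 stood at 163, 344, 468 and 226 CPM. Gzmb was found in 3 of the 10, Prf1 in 1 and Gzma in 4, and Nkg7 was at 1553 CPM (1201 to 1976). Of the 10 cells, 1 had 2 rule UMIs and 1094 MHC class II UMIs, and without it Xcl1 stood at 5064 CPM. Without the cell with 82 UMIs it stood at 2116 CPM, and without both cells at 2967 CPM.

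No Smart-seq2 well met a like rule. With at least 10 reads required, 0 of 768 wells had Ncr1, Gzma, Nkg7, Prf1 or Eomes, and 1 well each had Klrb1c and Klre1. At the same limit Klrd1 was found in 27 wells, Klrk1 in 20 and Ccl5 in 18. In 605 wells Csf1r, the macrophage growth factor receptor, had at least 10 reads.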

How the data were processed

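For the 4 droplet libraries the authors deposited a matrix of UMI counts (genes by cells, not normalized), and for the Smart-seq2 plates a table of read counts by well. Cell Ranger and STAR, with GRCm38, are named in the submitters' processing notes without versions or roles, and cell calling is not given in the sources used here. Libraries were grouped by the condition in the labels. Members, gene lists and the named-gene rule were chosen with earlier results of these data known.

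Counts were summed over the selected cells of a library and expressed as CPM. Ratios were log2 of CPM plus 10, with exact conditional binomial intervals at 95%, and shares carry Clopper-Pearson intervals. Genes named belong to the lists, to the 20 genes highest over other kept cells (at least 50 UMIs), or to the 10 largest increases and decreases of day 7 against day 2. The latter needed 100 CPM, a UMI in 20% of the cells and a higher share than in cells without Ptprc, and left out mitochondrial, ribosomal, haemoglobin and rule genes. Calculations were tested on simulated data. Alternatives were TMM factors (edgeR 4.0.16), other pseudocounts, equal cell weights, subtraction of free RNA, Scrublet (scanpy 1.11.5), thinning to 1000 UMIs and other rules. Allowing 1 Csf1r UMI with at least 3 rule UMIs, requiring Gzma and leaving out the highest cell were added after seeing the data. Gene identifiers were matched to GENCODE vM21 (28416 of 28692), and promoters came from RefSeq, GRCm38.p6. Python 3.11.15, numpy 2.4.6, scipy 1.17.1 and pandas 2.3.3 were used. A few listed genes are not reported here.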

Additional observations from a re-analysis of the deposited data

How the results depend on the processing

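No paired analysis was possible because each condition has 1 library, and no library could be left out. Among shares, counts of genes and list medians, 258 values under an alternative stayed close to the value reported (within its counting interval, or for counts of genes within 1.5 times) and 39 did not. Medians often turned: 47 of 215 list medians under an alternative, from 9 of 18 lists, had the other sign. The largest reported median among them was 0.49 in size. Of the ratios, 222 of 2249, from 72 of 173 genes, had the other sign, and the largest reported was 5.17 in size. With no Cd3 and no receptor constant UMI allowed, NK cells were 0%, 0.408%, 0.450% and 0.0927% of kept cells and 0%, 7.76%, 6.71% and 1.00% of NK plus T cells (sham, day 2, day 7, reversed). Under that rule, the list medians of day 7 over day 2 were -1.52 for lectin-like receptors, -1.07 for activating receptors, -0.80 for secreted factors, -1.22 for cytokine receptors, 2.74 for interferon genes and -0.44 for cell cycle genes. As reported, these medians were -0.53, -0.055, -0.98, -0.028, 1.64 and 0.49 in the same order. Of the 20 day 7 cells under the stricter rule only 13 had at least 3 rule UMIs, against all 9 on day 2. The 20% mitochondrial limit gave 0.463% of kept cells in sham and 1.78% on day 2. The count of genes higher on day 7, 162 as reported, was 80 with at least 3 rule UMIs, 100 with Gzma left out of the rule, 65 with no receptor constant UMI and 106 with at least 3 rule UMIs and 1 Csf1r UMI allowed together. It was 321 with a minimum of 1 UMI and 67 with 60 UMIs. The count of lower genes, 60 as reported, was 38 with at least 3 rule UMIs, 28 with a pseudocount of 50 CPM, 176 with 1 UMI and 23 with 60 UMIs. The median of secreted factors, -0.98 as reported, was -0.50 with at least 3 rule UMIs, -0.61 without Gzma in the rule, -0.15 without high Scrublet scores and -0.58 with at least 3 rule UMIs and 1 Csf1r UMI allowed together. It was -0.46 in cells with at least 3 Gzma UMIs, -0.88 with TMM factors, -0.77 with free RNA subtracted and -0.71 with equal cells. The median of checkpoint receptors, 0.34 as reported over only 2 genes with at least 10 UMIs, was 3.02 in cells with at least 3 Gzma UMIs. The median of 2 RNA quality genes, 0.33 as reported, was -0.12 without Gzma in the rule, -0.15 in cells with at least 3 Gzma UMIs, -0.093 with free RNA subtracted and -0.012 with equal cells. Genes past the threshold as reported that changed sign were Rgs1, at -0.014 with no receptor constant UMI, and Ccl1, at 0.72 with at least 3 Gzma UMIs and 0.75 without the highest cell. The cause of these shifts was not tested. The small number of cells limits every value: 1 UMI is 135 CPM in sham and 3.40 CPM on day 7.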
